A study of Mus musculus with 16 samples.

Results

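The synaptic vesicle and release machinery is described here through 41 presynaptic genes. Some encode proteins of the vesicle membrane, synapsins that tether vesicles in the reserve pool, Rab3 proteins of vesicle docking, and calcium sensors. Others encode proteins of the fusion (SNARE) machinery, the active zone and vesicle endocytosis. A gene was taken as a member when the array table listed its symbol, or an older name with the same gene number or RefSeq transcript, and it was read by its probe of highest mean signal. Of the 41 genes, 38 had a probe among the 25697 of the table, 33 of them passed the filter on dim probes, and these 33 were tested in every comparison. The older names were D14Ertd171e for *Erc2*, Dnm for *Dnm1* and 2410127E16Rik for *Ppfia3*, and *Sept5* was stored as the date 5-Sep. The expression of *Sncb*, *Synj1* and *Unc13a* was not analysed here, since no probe matched them.

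The study compared mice that carry 1 disrupted *Mef2c* allele (*Mef2c*-het, labelled KO) with wild-type (WT) littermates as a model of MEF2C haploinsufficiency. *Mef2c* encodes a transcription factor of the MEF2 family that acts in developing neurons, and the allele lacks an exon in every cell of the body, on the C57BL/6J strain. Total RNA of the hippocampus was hybridized to Illumina MouseRef-8 v2 beadchips, 1 array per sample, in 4 groups of 4: WT at postnatal day 1 (P1; replicates 1, 4, 5 and 8), *Mef2c*-het at P1 (1, 2, 4 and 8), WT at P30 (2, 3, 6 and 7) and *Mef2c*-het at P30 (3, 5, 6 and 7). The labels name neither litter nor sex, chip or drug treatment, and nothing beyond the sample names says that the 4 samples of a group came from separate mice, so the p-values measure the spread between these samples, which may be partly technical.

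A presynaptic terminal stores transmitter in vesicles. Vesicles dock at the active zone, a protein scaffold facing the postsynaptic cell, where SNARE proteins of the vesicle (synaptobrevins, encoded by *Vamp* genes) and of the plasma membrane (syntaxin and SNAP-25) form a complex that pulls the membranes together. Synaptotagmins and Doc2 proteins sense calcium, complexins hold and then assist the complex, the ATPase NSF with its SNAP adaptors takes spent complexes apart, and dynamin, amphiphysin and endophilin bring vesicle membrane back. In the rodent hippocampus most synapses form during the first weeks after birth, which lie between the ages compared.

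Each array gave between 12638 and 14150 probes with a detection p under 0.05, a measure of signal against negative control beads. All 7 markers of excitatory hippocampal neurons, such as *Slc17a7* and *Prox1*, passed the filter. By *Xist* and Y-linked signals the P1 arrays were read as 5 female and 3 male, and the 8 P30 arrays as male. The males at P1 were replicate 8 of WT and replicates 2 and 8 of *Mef2c*-het mice, so sex was not balanced between the genotypes there. The arrays of each age were split by correlation into 2 clusters, a number that was set and not found. The smaller clusters were replicates 6 and 7 of WT and 7 of *Mef2c*-het at P30, and replicate 8 of both genotypes at P1. Those 5 arrays had a 5th percentile of the signal of 140.0 to 161.4, against 105.8 to 130.8 on the other arrays. *Mef2c* itself, the disrupted gene, had 2 tested probes. At P30 the log2 signal of its probe ILMN_2732465 was 9.56, 9.75, 9.75 and 9.57 on the WT arrays and 9.16, 9.71, 8.93 and 9.87 on the *Mef2c*-het arrays. At this probe *Mef2c*-het replicate 7 lay above every WT array, replicate 5 lay within their range, and the groups overlapped. ILMN_2887992 read 8.58, 8.56, 8.92 and 8.66 on the WT arrays and 8.13, 8.39, 8.13 and 8.91 on the *Mef2c*-het arrays. There *Mef2c*-het replicates 3, 5 and 6 lay below every WT array, and replicate 7 lay within the WT range. The log2 fold change was -0.24 (SE 0.19, exact permutation p = 0.371) for ILMN_2732465 and -0.29 (SE 0.17, exact permutation p = 0.200) for ILMN_2887992. At P1 the values were -0.01 and 0.07 with overlapping groups. Whether these probes lie in the deleted part of the gene is not known here, so they check the labels only loosely. Results at P30 are therefore given also without the library labelled *Mef2c*-het replicate 7.

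Signals were compared on the log2 scale after quantile normalization, so that a difference of 1 is a doubling, and each probe is compared only with itself. A member was called when its p-value from limma, adjusted by the Benjamini-Hochberg method over all probes tested, was under 0.05.

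Most tested members rose between P1 and P30. In WT hippocampus 30 of the 33 tested members were higher at P30, whereas 28% of the 14777 tested probes were called higher. Members were listed with earlier results of these data known and read by the brightest probe of each gene. The background covers all tested probes, including further probes of the same gene, so the shares are not drawn alike. *Syt4* was the 1 member called lower, against 31.7% of probes, and *Doc2a* and *Stx1a* passed in neither direction. The median log2 fold change of the members was 1.14, a 2.20-fold difference, with a range of -1.01 to 2.42, while the median over all tested probes was -0.03. *Mef2c*-het mice showed 29 members higher and 2 lower (background 26.9% and 31.4% of probes), with a median of 0.97. The signals of the 4 P30 arrays lay wholly above those of the 4 P1 arrays for 30 members in WT and 29 in *Mef2c*-het mice (background 25.3% and 24.3%). In RNA of whole tissue, more cells or synapses of a kind and more RNA per cell cannot be told apart. With the smaller array clusters left out the counts were 30 higher and 1 lower in WT, and 30 higher and 2 lower in *Mef2c*-het mice. Sex as a covariate, a term that only the P1 arrays inform, gave the same counts as without it in both genotypes.

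**Figure D1:**
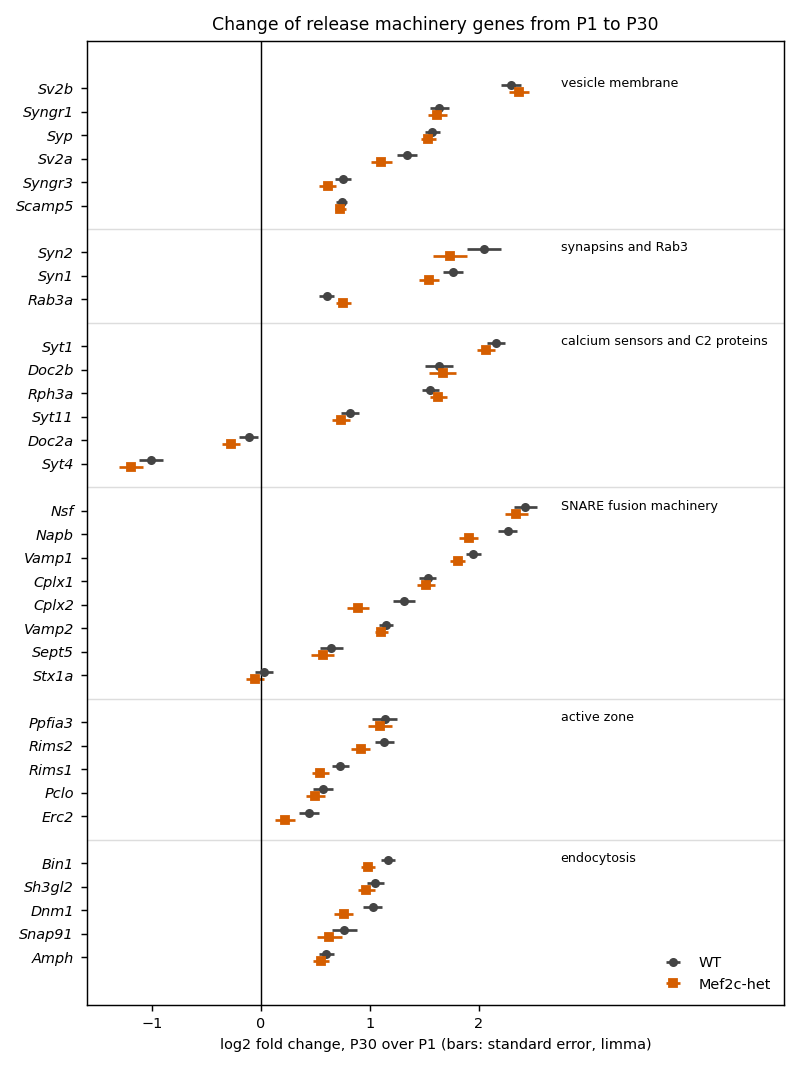
Log2 fold change from P1 to P30 (x axis) of the 33 tested members, grouped by role, in WT (grey circles) and *Mef2c*-het mice (orange squares), with bars for the standard error of limma. All but *Syt4*, *Doc2a* and *Stx1a* lie to the right of 0 in both genotypes, from 0.22 for *Erc2* in *Mef2c*-het mice to 2.42 for *Nsf* in WT.

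Among proteins of the vesicle membrane, all 6 members rose in both genotypes, with a median log2 fold change of 1.46 in WT and 1.32 in *Mef2c*-het mice. *Sv2b*, a transporter-like vesicle glycoprotein that is a paralog of *Sv2a*, rose most. Its log2 signal on the WT arrays was 10.84, 10.61, 10.81 and 10.63 at P1 and 12.94, 13.10, 12.93 and 13.09 at P30. The ages were more than 2 units apart on every pair of arrays, and the log2 fold change was 2.29 (SE 0.09, adjusted p = 2.22e-12), or 4.90-fold. *Syp* encodes synaptophysin, the vesicle protein that the study also stained as a presynaptic marker. It measured 13.09, 12.82, 12.93 and 13.04 in WT at P1 and 14.56, 14.50, 14.59 and 14.52 at P30. *Mef2c*-het arrays read 12.89, 12.86, 13.06 and 13.11 at P1 and 14.52, 14.57, 14.45 and 14.51 at P30. The ages were apart in both genotypes and the genotypes overlapped at both ages, with a change of 1.57 (SE 0.07) in WT and 1.53 (SE 0.07) in *Mef2c*-het mice. *Syngr1*, a synaptogyrin, rose by 1.64 and *Sv2a* by 1.34 in WT. *Scamp5*, a secretory carrier membrane protein, had the smallest rise of this role, from between 12.59 and 12.69 at P1 to between 13.28 and 13.42 at P30 in WT (0.74, SE 0.05, adjusted p = 2.03e-09). *Syngr3* was close to it at 0.75.

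The synapsins *Syn1* and *Syn2*, which tether vesicles in the reserve pool, and *Rab3a*, a small GTPase of vesicle docking, all rose in both genotypes. *Syn2* measured 10.39, 10.03, 10.48 and 10.60 on the WT arrays at P1 and 12.34, 12.45, 12.47 and 12.43 at P30. Its arrays spread more at P1 than at P30, and the change was 2.05 (SE 0.16, adjusted p = 8.06e-09) in WT and 1.74 in *Mef2c*-het mice. *Syn1* read 12.35, 12.01, 12.08 and 12.18 at P1, and the 4 WT arrays at P30 lay between 13.91 and 13.92, a change of 1.76 (SE 0.09). *Rab3a* was at 12.70, 12.69, 12.97 and 12.92 at P1 and at 13.39, 13.45, 13.36 and 13.48 at P30, with a smaller change of 0.60 (SE 0.07, adjusted p = 8.34e-07) in WT and 0.76 in *Mef2c*-het mice.

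Calcium sensors and related C2-domain proteins did not move as 1 group. *Syt1*, the fast calcium sensor of release, measured 10.56, 10.37, 10.61 and 10.56 in WT at P1 and 12.71, 12.74, 12.69 and 12.59 at P30, a change of 2.16 (SE 0.08, adjusted p = 2.06e-12). *Doc2b* (1.64), *Rph3a*, the Rab3 effector rabphilin (1.56), and *Syt11* (0.82) rose as well in WT, and these 4 genes rose in *Mef2c*-het mice. *Syt4*, a synaptotagmin whose first C2 domain does not bind calcium and which sits largely on dense-core and other secretory vesicles, went the opposite way. Its log2 signal was 12.79, 12.75, 12.90 and 12.66 at P1 and 11.66, 11.998, 11.76 and 11.66 at P30 in WT. *Mef2c*-het arrays gave 12.73, 12.77, 12.99 and 12.80 at P1 and 11.35, 11.85, 11.50 and 11.83 at P30. Every P30 array lay below every P1 array, and the log2 fold change was -1.01 (SE 0.11, adjusted p = 6.73e-07) in WT and -1.19 (SE 0.11, adjusted p = 9.59e-08) in *Mef2c*-het mice, with an adjusted p of at most 0.00198 under the other settings run. *Doc2a*, a high-affinity calcium sensor linked to spontaneous release, was dim. It read 7.71, 7.74, 7.74 and 7.94 at P1 and 7.93, 7.65, 7.48 and 7.62 at P30 in WT, and the ages overlapped (-0.11, SE 0.09, adjusted p = 0.275). In *Mef2c*-het mice it read 7.84, 7.79, 7.96 and 7.91 at P1 and 7.62, 7.52, 7.71 and 7.55 at P30. These ages did not overlap, and *Doc2a* was called lower (-0.28, SE 0.09, adjusted p = 0.0105). The 2 genotypes' changes differed by -0.16 (limma's interaction term, unadjusted p = 0.190, adjusted p = 0.998), so a difference between them was not shown. Without WT P30 replicate 2 the WT value was -0.20 with an adjusted p of 0.0333.

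Of the 8 tested members of the fusion machinery, 7 rose in both genotypes, with a median log2 fold change of 1.42 in WT. *Nsf*, the ATPase that separates SNARE complexes, had the largest change of all members. On the WT arrays it measured 11.74, 11.21, 11.44 and 11.48 at P1 and 13.79, 13.91, 13.998 and 13.87 at P30. *Mef2c*-het arrays gave 11.53, 11.35, 11.44 and 11.85 at P1 and 13.86, 13.89, 13.86 and 13.94 at P30. The ages were more than 2 units apart in both genotypes, and the change was 2.42 (SE 0.11, adjusted p = 9.78e-12), or 5.37-fold, in WT and 2.34 (SE 0.11) in *Mef2c*-het mice. *Napb*, which encodes the brain-enriched SNAP adaptor of NSF, rose by 2.26 in WT and 1.91 in *Mef2c*-het mice. The synaptobrevins *Vamp1* and *Vamp2* rose by 1.95 and 1.14 in WT, the complexins *Cplx1* and *Cplx2* by 1.53 and 1.31, and *Sept5*, a septin that binds syntaxin, by 0.65. *Stx1a*, the plasma membrane syntaxin, stood apart from its partners. It read 12.10, 11.88, 11.92 and 12.09 at P1 and 11.98, 12.09, 11.90 and 12.13 at P30 in WT, and 11.85, 11.92, 12.03 and 12.09 at P1 and 11.80, 11.81, 11.97 and 12.08 at P30 in *Mef2c*-het mice. The ages overlapped in both genotypes, with changes of 0.02 (SE 0.08, adjusted p = 0.819) and -0.06 (SE 0.08, adjusted p = 0.571). The 95% interval of the change in WT, on the log2 scale, was -0.15 to 0.20, below the change of each of the other 7 fusion members.

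**Figure D2:**
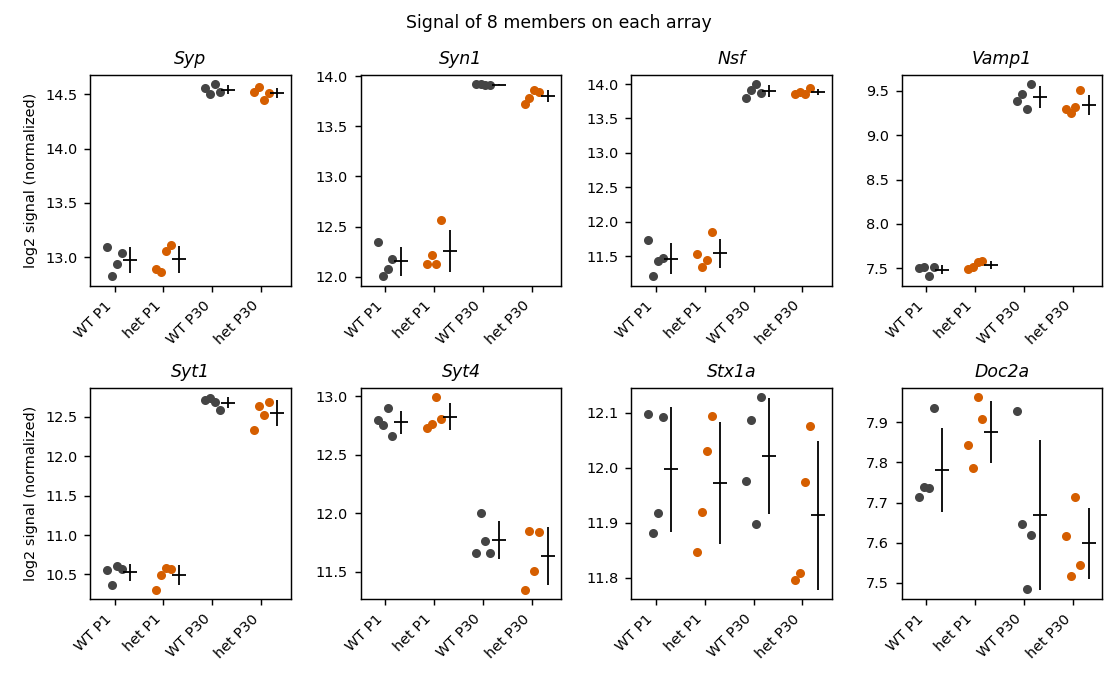
Normalized log2 signal (y axis, scaled separately in each panel) of 8 members on each of the 16 arrays, by group, with the mean and SD of the 4 arrays beside the points. *Syp*, *Syn1*, *Nsf*, *Vamp1* and *Syt1* separate the ages upwards and *Syt4* downwards, whereas the groups of *Stx1a* overlap, at 11.80 to 12.13 over all arrays.

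Active zone scaffold genes had the lowest median of the 6 roles. All 5 tested members rose in WT, with a median of 0.73, and 4 of 5 in *Mef2c*-het mice, with a median of 0.54. *Ppfia3*, a liprin, measured 9.99, 9.68, 9.94 and 10.25 at P1 and 11.00, 10.97, 11.24 and 11.18 at P30 in WT (1.14, SE 0.11, adjusted p = 1.99e-07). *Rims2* and *Rims1*, which link vesicles to calcium channels, rose by 1.13 and 0.73, and *Pclo*, the scaffold piccolo, by 0.57. *Rims1* was near background at P1, where it was detected on 2 of 4 WT and 3 of 4 *Mef2c*-het arrays. Both medians of this role are the values of *Rims1*. With normexp background correction its change less that of *Rims2* turned from -0.39 to 0.29. The order of the roles was not computed under that correction, so it holds only for signals without it. *Erc2*, which encodes the scaffold CAST, had the smallest rise. In WT it read 11.59, 11.39, 11.55 and 11.64 at P1 and 11.999, 11.97, 12.10 and 11.87 at P30, without overlap (0.44, SE 0.09, adjusted p = 0.000567). In *Mef2c*-het mice it read 11.49, 11.65, 11.61 and 11.85 at P1 and 11.63, 11.99, 11.86 and 11.99 at P30. Replicate 3 at P30 lay among the P1 arrays, and the change of 0.22 (SE 0.09, adjusted p = 0.0554) missed the threshold. Without that array it was 0.30 with an adjusted p of 0.00925, and without P1 replicate 8 it was 0.28 with an adjusted p of 0.0156. The change of *Erc2* differed between the genotypes by -0.23 (limma's interaction term, unadjusted p = 0.103).

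Vesicle endocytosis was represented by 5 tested genes, which all rose in both genotypes, with a median of 1.02 in WT and 0.76 in *Mef2c*-het mice. *Bin1*, an amphiphysin-like protein that bends membranes and is found in oligodendrocytes as well as neurons, measured 10.98, 10.98, 10.84 and 10.92 at P1 and 12.12, 12.19, 12.05 and 12.02 at P30 in WT, a change of 1.17 (SE 0.07, adjusted p = 1.87e-10). *Sh3gl2*, which encodes endophilin A1, rose by 1.05, the dynamin gene *Dnm1* by 1.02, and the clathrin adaptor *Snap91* by 0.77. *Amph* was at 11.53, 11.26, 11.49 and 11.54 at P1 and at 12.06, 11.999, 12.04 and 12.13 at P30, the smallest change of this role (0.60, SE 0.07, adjusted p = 2.15e-06). *Dnm1* was detected on 3 of the 4 WT arrays at P1.

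For 5 listed genes with a probe no level was measured. *Bsn* (bassoon), *Rab3c*, *Snap25*, *Syn3* and *Syt7* had a detection p of 0.05 or more on all 16 arrays, so no fold change is given for them. The deposited signal of the *Snap25* probe was 107 to 173, and its lowest detection p on any array was 0.370. *Snap25*, the plasma membrane partner of syntaxin, is known as an abundant transcript of neurons, and the value describes this probe rather than the level of the gene.

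The promoters of the members were read from the RefSeq table of GRCm38.p6, which held 30 of the 41 genes, over the 250 bases before the start of transcription and on both strands. They are shown because most tested members rose with age. The 30 also include genes without a measured change, which are counted as members in this paragraph. These are *Sncb*, *Synj1* and *Unc13a*, which had no probe, and *Bsn* and *Rab3c*, which were not detected. Searched were 2 stretches of the RE1 element bound by the neuronal repressor REST, which share the letters AGCACC. The left stretch is TTCAGCACC, and the core is AGCACC followed, after 2 bases of any kind, by GGACAG. The cyclic AMP response element was read as TGACGTCA. The GC box was GGGCGG and the TATA box TATAAA. For MEF2 its binding consensus was used. Shares are given for the 13892 genes of the table that the array also carries. TTCAGCACC was found in *Syn1* and *Ppfia3*, 2 of 30 members or 6.67%, and in 0.367% of those genes. The core was in *Scamp5* alone among members and in 0.0792% of genes. TGACGTCA was in *Syn1* and *Sh3gl2* and in 2.36% of genes. GGGCGG was in 21 members, 70%, and in 50% of genes. TATAAA was in *Sv2b* alone among members, and in 13% of genes. The MEF2 consensus was in none of the 30 member windows and in 2.99% of genes. Median GC content was 62.0% for members and 57.6% for genes on the array, with the highest value taken where a gene had several windows. Matches of letters are a description of these windows and not of binding. The 4 members with an RE1 or cyclic AMP match are printed below as stretches of their windows, 5′ to 3′ on the strand of the gene, with the matching letters in capitals.
*Syn1*, chrX:20921030-20921168, minus strand, bases -250 to -112 from the start: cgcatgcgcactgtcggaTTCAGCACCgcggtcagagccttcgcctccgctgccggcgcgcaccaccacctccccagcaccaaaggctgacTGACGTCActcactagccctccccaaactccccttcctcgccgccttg
*Ppfia3*, chr7:45367020-45367105, minus strand, bases -86 to -1: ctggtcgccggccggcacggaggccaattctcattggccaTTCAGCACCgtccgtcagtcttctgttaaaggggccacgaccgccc
*Scamp5*, chr9:57468158-57468251, minus strand, bases -191 to -98: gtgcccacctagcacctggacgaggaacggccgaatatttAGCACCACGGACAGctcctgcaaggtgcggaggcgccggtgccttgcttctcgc
*Sh3gl2*, chr4:85205379-85205455, plus strand, bases -77 to -1: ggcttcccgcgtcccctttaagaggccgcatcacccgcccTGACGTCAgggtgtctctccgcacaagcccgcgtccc
These 4 genes rose with age by 1.76, 1.14, 0.74 and 1.05 in WT, in the order printed, values that lie within the range of the members without a match.

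Related members changed unequally with age. For each of 10 pairs of paralogs with both genes tested, out of 14 listed, the log2 difference of the 2 signals was taken within each array and compared between the ages by a two-sided exact permutation test that kept the genotypes separate. This compares changes and not levels. All 10 pairs differed at an adjusted p under 0.05, 9 of them with an adjusted p of at most 0.00544. *Sv2a* rose less than *Sv2b* by 1.11, and *Amph* less than *Bin1* by 0.50. The change of *Doc2a*, which was below 0 in both genotypes, lay 1.85 under the rise of *Doc2b*. *Syt1* rose more than *Syt11* by 1.33, and its change and that of the falling *Syt4* were 3.21 apart. *Syngr1* rose more than *Syngr3* by 0.95 at its chosen probe, of transcript NM_207708. Its probes of NM_009303 changed by 0.24 and -0.09 in WT, less than the 0.75 of *Syngr3*. In *Mef2c*-het mice they changed by 0.33 and 0.04, less than its 0.61. *Cplx1* rose more than *Cplx2* by 0.42 (exact permutation p = 0.0049), with 0.22 in WT and 0.63 in *Mef2c*-het mice. With normexp background correction the value of this pair was 0.02 (exact permutation p = 0.904). *Rims1* rose less than *Rims2* by 0.39, with the sign turned to 0.29 under normexp. *Vamp2* rose less than *Vamp1* by 0.75, with the sign turned to 0.21 when all probes of a gene were averaged. *Syn1* less *Syn2* had the smallest difference, -0.24 (exact permutation p = 0.0265), and -0.20 (p = 0.0624) without *Mef2c*-het P30 replicate 7. The smallest p that this test can give is 0.000408, adjusted 0.00051, and it was reached by 8 of the 10 pairs.

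**Figure D3:**
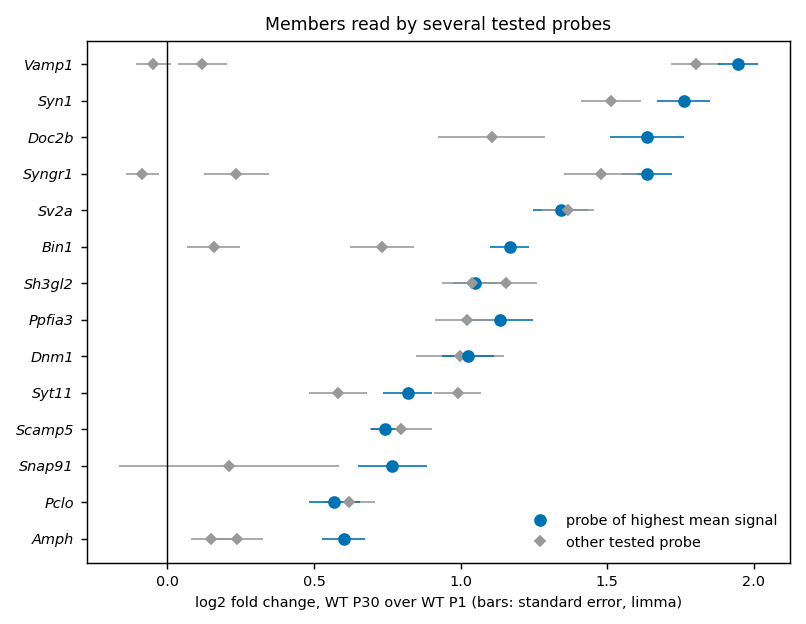
Log2 fold change from P1 to P30 in WT (x axis, with standard errors of limma) of every tested probe of the 14 members that had several. Blue circles mark the probe of highest mean signal and grey diamonds the others. The probes of *Sv2a*, *Dnm1* and *Pclo* lie close together, and for *Vamp1* and *Syngr1* they form separate groups near 0 and above 1.4.

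Probe choice mattered for *Vamp1* and *Syngr1*. Of the 36 tested probes of the 14 members with several, 29 were called higher in WT at P30. *Vamp1*, whose product is the main synaptobrevin of spinal cord and brainstem, was read by 4 probes that the table assigns to 2 RefSeq transcripts. Both probes of NM_009496 rose, by 1.95 (SE 0.07) and 1.80 (SE 0.08) in WT. Those of NM_001080557, detected on 10 and 9 of the 16 arrays, changed by 0.12 (SE 0.08, adjusted p = 0.234) and -0.05 (SE 0.06, adjusted p = 0.510). The same split was seen for *Syngr1*, where both probes of NM_207708 rose, by 1.64 (SE 0.09) and 1.48 (SE 0.13), and those of NM_009303 changed by 0.24 (SE 0.11, adjusted p = 0.0803) and -0.09 (SE 0.06, adjusted p = 0.211). In *Mef2c*-het mice the dimmer *Vamp1* transcript again passed for neither probe (-0.08 and 0.12, in the same order), whereas 1 of the 2 probes of NM_009303 did (0.33, adjusted p = 0.0183). The difference between transcripts was not tested. Of *Bin1*, all 3 probes are assigned to 1 transcript and still gave 1.17, 0.73 and 0.16 in WT. *Amph* gave 0.60, 0.24 and 0.15, and *Snap91* 0.77 and 0.21, the last with an SE of 0.38.

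A wider presynaptic list held 85 further genes, of which 64 were tested. In WT 37 of them were higher and 12 lower at P30 (background 28% and 31.7% of probes), with a median log2 fold change of 0.26. In *Mef2c*-het mice 32 were higher and 15 lower (background 26.9% and 31.4%), with a median of 0.19. The largest rise in WT was that of *Pacsin1*, a neuronal endocytic protein that binds dynamin (2.79, SE 0.10), followed by the scaffold gene *Lin7b* (2.59) and the synaptotagmin *Syt13* (1.99). *Napg*, another SNAP adaptor of NSF, rose by 1.35. Lower at P30 were *Vat1* (-1.71, SE 0.12), the Rab3 paralog *Rab3d* (-1.48), *Syt9* (-1.05) and the short RIM gene *Rims3* (-0.95).

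Markers of cell types moved with age too. Over all tested probes 28% were called higher and 31.7% lower in WT, which is the background of the counts below. All 9 tested oligodendrocyte markers were higher in WT at P30 (median 4.98), and their mean log2 signal per array went from between 7.70 and 7.87 to between 12.69 and 13.02. All 14 tested markers of immature neurons and progenitors were lower (median -2.53), from a mean of 10.60 to 11.04 per array to one of 8.29 to 8.56. Of 12 pan-neuronal markers 5 were higher and 4 lower, with a median change of -0.14, although their mean signal rose from between 10.91 and 11.01 to between 11.54 and 11.67. Excitatory neuron markers went from 8.84 to 9.28 per array to 11.11 to 11.22, with 5 of 7 higher, led by *Camk2a* at 3.93, and the other 2 lower. Of 9 GABAergic interneuron markers 7 were higher and 2 lower. Higher too were 7 of 8 astrocyte and 7 of 11 microglia markers, with none lower, while 3 endothelial markers were higher and 3 lower of 7. The members' own mean went from 10.40 to 10.57 per array to 11.60 to 11.67. The part of cell composition in the members' change was not tested.

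At P30, whether *Mef2c*-het mice differ from WT was the question of the study. None of the 33 members passed the adjusted threshold, as was true of all but 1 of the 13413 tested probes (0.00746%). At an unadjusted p under 0.05, 3 members were lower in *Mef2c*-het mice, *Cplx2*, *Napb* and *Sv2a*, and none was higher, where 1.69% of tested probes were lower and 0.664% higher. By sign alone, 26 of 33 members lay below 0 (78.8%), against 55.1% of probes, and the median log2 fold change of the members was -0.09 against -0.01. The groups of 4 arrays did not overlap for *Napb* and *Syn1*, lower in *Mef2c*-het mice (background 1.18% of probes), and for *Rab3a*, higher (background 0.574%). The half-width of the 95% interval, before any adjustment, ran from 0.12 to 0.29 over the members, with a median of 0.18.

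*Cplx2*, a complexin of forebrain excitatory synapses, had the largest difference. The WT arrays read 9.31, 9.37, 9.72 and 9.61 and the *Mef2c*-het arrays 9.08, 9.26, 9.05 and 9.37. *Mef2c*-het replicate 7 reached the level of WT replicate 3, so the groups overlapped, and the difference was -0.31 (SE 0.11, 95% interval -0.55 to -0.07, unadjusted p = 0.0183 and adjusted p = 0.976 from limma, exact permutation p = 0.0571). *Napb* was at 12.22, 12.39, 12.46 and 12.22 in WT and at 12.05, 12.10, 12.05 and 12.18 in *Mef2c*-het mice. Every *Mef2c*-het array was below every WT array, by -0.22 on average (SE 0.07, unadjusted p = 0.0136, exact permutation p = 0.0286, the smallest that 4 against 4 allow). *Sv2a*, the vesicle glycoprotein that binds the drug levetiracetam, measured 12.14, 12.09, 12.11 and 12.02 in WT and 11.80, 11.84, 11.79 and 12.05 in *Mef2c*-het mice. All *Mef2c*-het arrays but replicate 7, which lay among the WT arrays, were below them (-0.22, SE 0.07, unadjusted p = 0.0130, exact permutation p = 0.0571). A second *Sv2a* probe gave -0.24.

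*Syn1* measured 13.91, 13.91, 13.90 and 13.90 in WT and 13.73, 13.79, 13.85 and 13.83 in *Mef2c*-het mice, a small difference without overlap (-0.10, SE 0.05, unadjusted p = 0.0923, exact permutation p = 0.0286). Its second probe gave -0.01, so the difference was not shared by both. *Rab3a* was at 13.38, 13.44, 13.35 and 13.47 in WT and at 13.49, 13.50, 13.55 and 13.48 in *Mef2c*-het mice, higher by 0.10 (SE 0.06, unadjusted p = 0.112, exact permutation p = 0.0286). The largest value above 0 was that of *Doc2b*, at 10.74, 10.62, 11.00 and 10.78 in WT and 10.69, 10.94, 10.87 and 11.10 in *Mef2c*-het mice, with overlap (0.12, SE 0.10, exact permutation p = 0.343). *Syp* read 14.45, 14.40, 14.49 and 14.42 in WT and 14.42, 14.46, 14.35 and 14.41 in *Mef2c*-het mice. These groups overlapped, and the 95% interval of the difference was -0.16 to 0.09, or 0.898- to 1.07-fold. For the protein, the study reported less synaptophysin in the hippocampus of *Mef2c*-het mice, by staining and by immunoblot. The arrays read RNA, which is a different measure from those protein levels.

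By role, the members below 0 at P30 were 5 of 6 for the vesicle membrane, 2 of 3 for synapsins and *Rab3a*, 4 of 6 for calcium sensors, 7 of 8 for the fusion machinery, and 4 of 5 each for the active zone and endocytosis. Their medians lay between -0.02 for the vesicle membrane and -0.12 for endocytosis. The remaining members, those not named above for P30, had changes between -0.20 for *Syn2* and 0.07 for *Vamp2*, and none of them passed before adjustment.

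**Figure D4:**
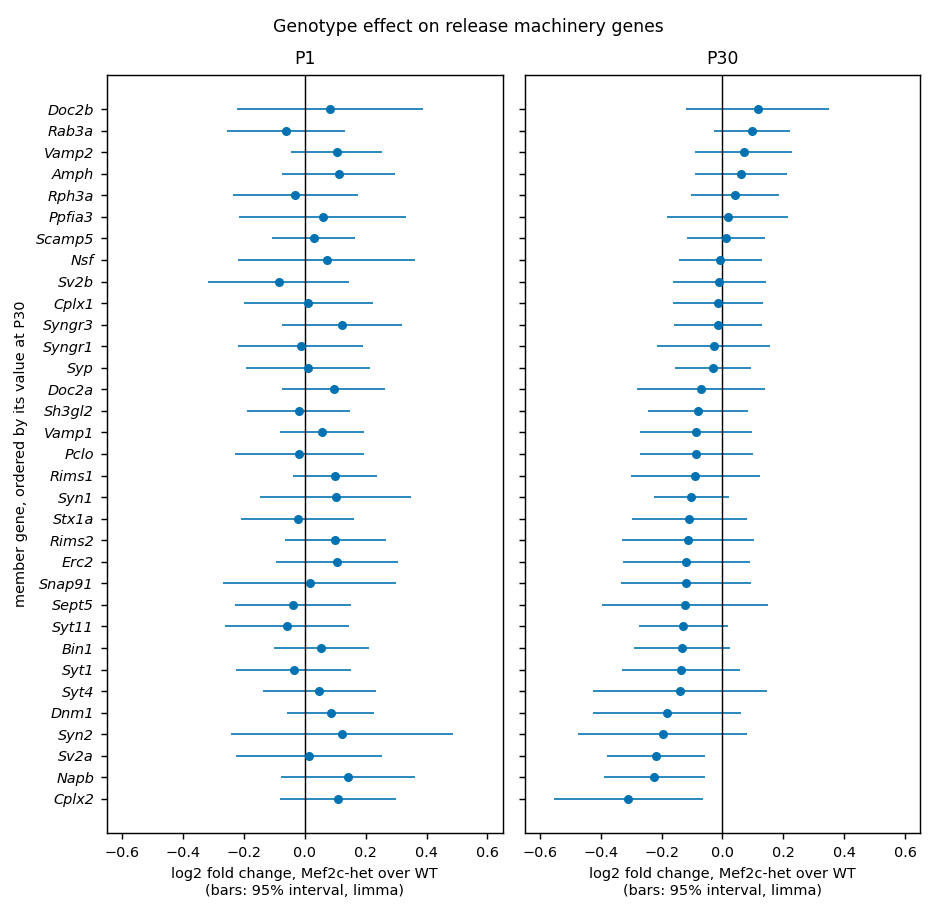
Log2 fold change of *Mef2c*-het over WT (x axis) with its 95% interval from limma for the 33 tested members at P1 (left) and P30 (right), ordered by the value at P30. At P30 the intervals of *Cplx2*, *Napb* and *Sv2a* alone lie wholly below 0, and at P1 every interval includes 0.

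The difference at P30 was not even across the *Mef2c*-het arrays. Set against the mean of the WT arrays, the median of the 33 members was -0.13 on replicate 3, with 29 members below, and -0.09 on replicate 6, with 24 below. On replicate 5 it was -0.01, with 18 below, and on replicate 7 it was 0.04, with 13 below. The 4 WT arrays lay between -0.05 and 0.02. Replicates 3 and 6 are also those with the lowest *Mef2c* signal among the P30 arrays. *Mef2c*-het replicate 7 belongs to the arrays of higher 5th percentile signal (153.6), as WT replicates 6 and 7 do. *Mef2c*-het replicates 3, 5 and 6 do not. At P1 replicate 8 of both genotypes belongs to those arrays. The part of *Mef2c* signal or of array cluster in the members' values was not tested. Without *Mef2c*-het replicate 7, 25 of 33 members were below 0, the median was -0.13 and 5 members were lower before adjustment. *Sv2a* was then at -0.28 (limma, unadjusted p = 0.00155, adjusted p = 0.476), *Cplx2* at -0.37 and *Napb* at -0.25. The share of all probes was not computed for this fit, so its counts stand without a background. *Cplx2* lost its unadjusted call when any 1 of 4 arrays was left out, WT replicates 6 and 7 and *Mef2c*-het replicates 3 and 6, with p between 0.0508 and 0.0550. Scaling to a common median, which put 43.4% of all probes below 0 in place of 55.1%, left 20 of 33 members below 0 and 1 of them, *Cplx2*, with an unadjusted p under 0.05.

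**Figure D5:**
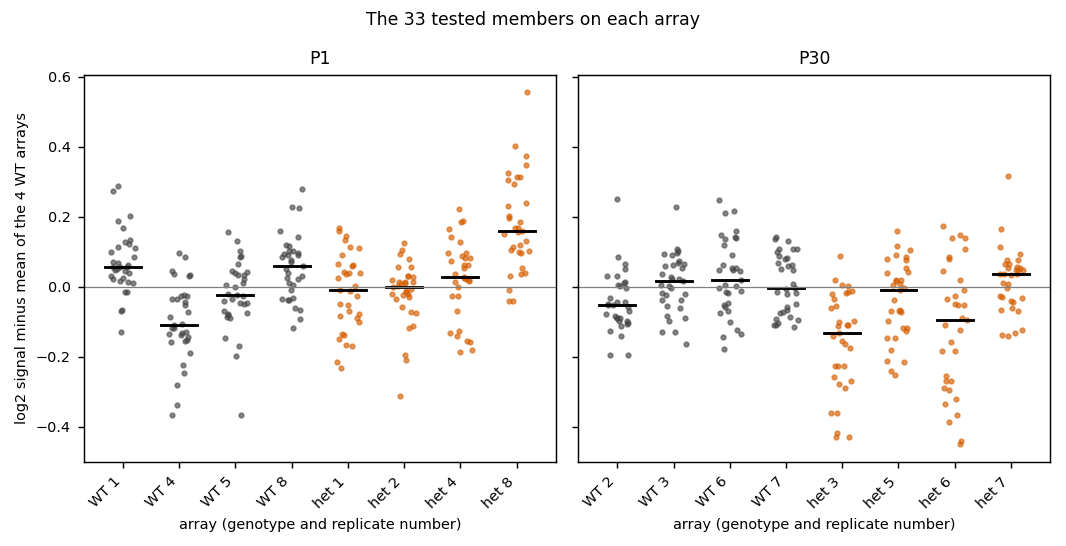
Log2 signal of each of the 33 tested members minus its mean over the 4 WT arrays of the same age (y axis), on each array at P1 (left) and P30 (right); points are members and bars their medians. At P30 the medians of *Mef2c*-het replicates 3 and 6 lie at -0.13 and -0.09 and those of replicates 5 and 7 at -0.01 and 0.04, and at P1 *Mef2c*-het replicate 8 lies highest at 0.16.

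The pan-neuronal and excitatory neuron markers moved little with genotype at P30. Of 12 pan-neuronal markers 7 lay below 0 (median -0.01), and 3 of 6 excitatory neuron markers did (median -0.00). Of 10 tested markers of immature neurons and progenitors 6 lay below 0 (median -0.01), and 1 was lower before adjustment. Of 11 microglia markers 10 lay above 0, with a median of 0.13 and with *C1qa* and *C1qb* at an unadjusted p under 0.05. Their mean log2 signal was 8.83 to 8.95 on the WT arrays and 8.91 to 9.13 on the *Mef2c*-het arrays, highest on replicate 3 and lowest on replicate 7. Oligodendrocyte markers lay below 0 for 7 of 9, with a median of -0.08 and a mean of 12.69 to 13.02 on the WT and 12.64 to 13.00 on the *Mef2c*-het arrays. All 7 tested endothelial markers lay below 0 (median -0.08), as did all 3 of the choroid plexus (median -0.21), whereas all 4 blood markers lay above it (median 0.09). Of 9 GABAergic interneuron markers 6 lay above 0 (median 0.10), with 2 higher and 1 lower before adjustment (background 0.664% and 1.69% of probes). The part of these marker lists in the members' values was not tested. In the wider presynaptic list, 41 of 63 tested genes lay below 0 (65.1%), with a median of -0.03, and *Syngr2* (-0.19) was among those lower before adjustment.

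At P1 no member differed by genotype at an unadjusted p under 0.05 (background 1.62% of 13566 tested probes), and none had groups that did not overlap (background 1.29%). Of the 33 members 23 lay above 0, where 50.7% of probes did, with a median of 0.06. The extremes were *Napb*, higher in *Mef2c*-het mice by 0.14 (SE 0.10, unadjusted p = 0.179), and *Sv2b*, at -0.09. *Napb* measured 10.22, 9.88, 10.06 and 10.24 in WT and 10.25, 10.16, 10.16 and 10.41 in *Mef2c*-het mice, with overlap. *Syp* read 13.10, 12.81, 12.92 and 13.04 in WT and 12.88, 12.86, 13.07 and 13.12 in *Mef2c*-het mice, also with overlap, and differed by 0.01 (95% interval -0.19 to 0.21). *Cplx2* was at 0.11 and *Sv2a* at 0.01. On *Mef2c*-het replicate 8 the members' median was 0.16 above the WT mean with 3 members below it. Without that array 18 of the 33 members lay below 0 and the median was -0.00. The number below 0 was 16 without WT replicate 4 and 5 without *Mef2c*-het replicate 1, so the sign at P1 rested on single arrays. All 7 excitatory neuron markers lay above 0 at P1 as well (median 0.08), with a mean of 8.84 to 9.28 on the WT and 9.02 to 9.29 on the *Mef2c*-het arrays. Microglia markers lay below 0 for 9 of 11 (median -0.13), 3 of them with an unadjusted p under 0.05, with a mean of 8.23 to 8.49 and 8.09 to 8.33. The part of these lists was not tested.

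Whether the change with age itself differs between the genotypes was tested as an interaction over all 16 arrays. For 29 of the 33 members the rise was smaller, or the fall larger, in *Mef2c*-het mice, against 52.8% of the 14777 tested probes, with a median difference of -0.08. None passed the adjusted threshold. An unadjusted p under 0.05 from limma was reached by *Cplx2* (-0.42, SE 0.14, unadjusted p = 0.00912, adjusted p = 0.998) and *Napb* (-0.36, SE 0.12, unadjusted p = 0.0106), both with the smaller rise in *Mef2c*-het mice, where 1.75% of probes were lower before adjustment and 2.96% passed in either direction. *Cplx2* rose from a mean of 8.24 to 9.55 in WT and from 8.35 to 9.24 in *Mef2c*-het mice. *Napb* rose from 10.05 to 12.32 and from 10.20 to 12.10. For both genes the *Mef2c*-het mean was above the WT mean at P1 and below it at P30. The largest difference the other way was that of *Rab3a* (0.15, SE 0.10, adjusted p = 0.998 from limma), and *Syp* was at -0.04 (SE 0.10). All 8 fusion members, all 5 of the active zone and all 5 of endocytosis lay below 0. Without *Mef2c*-het P30 replicate 7, 28 members lay below 0, with a median of -0.14 and 8 lower before adjustment. Without P1 replicate 8 of *Mef2c*-het mice 25 did, with a median of -0.07 and 3 lower, and without WT P30 replicate 2 or 7 there were 4 lower. Shares of all probes were not computed for these fits, so their counts stand without a background. The difference lay below 0 also for 5 of 7 excitatory neuron markers (median -0.10), for all 7 endothelial markers (median -0.12) and for 6 of 9 oligodendrocyte markers (median -0.04). Microglia markers lay above 0 for 10 of 11 (median 0.32), and so did all 4 blood markers (median 0.30). The part of these lists was not tested.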

How the data were processed

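Hippocampal RNA of 16 samples was read on Illumina beadchips. The deposited table holds, for each probe and array, the mean bead intensity before normalization, its bead standard error and bead number, and a detection p-value that the authors' scanner export computed against negative control beads. The submitters' processing notes name lumi and limma, and the software of the export is not given in the sources used here. Intensities were taken to log2, quantile-normalized and fitted with limma 3.58.1 in R 4.3.3 (lmFit, eBayes), with p-values adjusted by Benjamini-Hochberg over all probes that had a detection p-value under 0.05 on at least 4 arrays of the fit. Quantile normalization removes differences in overall signal between arrays. Changes with age and their difference between genotypes came from the 16 arrays together, and genotype effects from the 8 arrays of each age. Two-sided exact permutation tests are over all splits of 4 against 4, whose smallest p is 0.0286. Probes were read through 13 to 62 beads for the members, with a median of 39.5, and the number of arrays limits the precision.

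Where a gene had several probes, that of highest mean signal was used. Gene names were updated through a RefSeq table (GRCm38.p6) that matched 25376 of the 25697 probes. Named with values are, by role, the members with the largest and smallest change with age and those not called higher; for genotype, members with an unadjusted p under 0.05 or groups that did not overlap, the extremes, *Syp*, *Cplx2* and *Sv2a*; and members whose probes disagree. The members, the wider presynaptic list and the marker lists were chosen with earlier results of these data known. Alternatives were median scaling, cyclic loess, normexp background correction (offset 16), no filter and a detection p under 0.01, mean of probes, other sets of arrays, trend and robust variance, a sex term, blocking on the replicate number, and leaving out each array. Blocks for array clusters, or leaving out the smaller clusters, were chosen after seeing the data. The fitting and permutation steps were tested on simulated data. Replicate numbers come from the labels and were not taken as pairs. Values of some genes of the wider list are not reported here.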

Additional observations from a re-analysis of the deposited data

Results flagged for a closer look

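Among 132 groups of 4 arrays (33 members in 4 groups), 6 held 1 array whose gap to the nearest of the others took a larger part of the range of the group than Dixon's 95% limit for 4 samples, where chance gives about 6.6. *Doc2b* on *Mef2c*-het P1 replicate 8 was highest, at 9.52 against 9.20 (0.903 of the range). *Doc2a* on WT P1 replicate 8 was highest too, at 7.94 against 7.74 (0.888). *Dnm1* on WT P30 replicate 6 was highest, at 8.65 against 8.33 (0.91). On WT P1 replicate 5, *Vamp1* was lowest, at 7.41 against 7.50 (0.886), and so was *Syt11*, at 13.43 against 13.70 (0.865). *Amph* on WT P1 replicate 4 was lowest, at 11.26 against 11.49 (0.83). The replicate 8 arrays at P1 and WT P30 replicate 6 belong to the arrays of higher 5th percentile signal.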

How the results depend on the processing

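Of 1293 values computed under alternatives, 1218 kept their direction and their side of the threshold or moved little. For a median, moving little meant a shift under 0.074, the SD between replicates of the members' mean log2 signal. The genotype medians are close to that size (-0.09 at P30, 0.06 at P1, -0.08 for the difference). The tally therefore says little about them, and a change of sign could count as moving little. The WT median change with age of 1.14 was 1.05 with median scaling, 1.21 with cyclic loess, 1.41 with normexp, 1.04 with no filter and 1.01 with the mean of probes, and that in *Mef2c*-het mice of 0.97 was 1.19 with normexp, 0.82 with no filter and 0.89 with the mean of probes. Members below 0 for age numbered 4 (WT) and 6 (*Mef2c*-het) with no filter, and 1 in WT with the cluster block or the larger clusters alone. Lower members at P30 (3) numbered 1 with median scaling and 5 with no filter or the larger clusters alone, and 1 was higher with no filter or the cluster block. For the difference between genotypes (2 lower) the count was 1 with median scaling and 4 with normexp, no filter or the larger clusters alone. At P1, 1 member was higher with normexp (*Rims1*). Leaving out 1 array gave these ranges, for which no share of all probes was computed. WT age had 30 to 30 higher, 1 to 2 lower and 2 to 3 below 0, with a median of 1.09 to 1.16. *Mef2c*-het age had 29 to 30 higher, 2 to 2 lower and 3 to 3 below 0, with a median of 0.92 to 0.99. P30 had 0 to 0 higher, 2 to 5 lower and 24 to 26 below 0, with a median of -0.13 to -0.05. P1 had 0 to 0 higher, 0 to 0 lower and 5 to 18 below 0, with a median of -0.00 to 0.07. The difference had 0 to 0 higher, 2 to 8 lower and 23 to 30 below 0, with a median of -0.15 to -0.07, and 9 to 10 pairs passed. Values near 0 turned sign. WT *Stx1a* was -0.045 with the sex term and -0.014 to 0.066 over arrays left out, and *Stx1a* in *Mef2c*-het mice 0.030 with loess. WT *Doc2a* was 0.0020 with the cluster block and 0.061 with the larger clusters alone. *Syp* was 0.0052 at P30 with median scaling. At P1 it was -0.0014 with the sex term, -0.012 with the larger clusters and -0.041 to 0.056 over arrays left out, and *Syt4* was -0.011 to 0.090. The difference between genotypes for *Syp* was -0.081 to 0.0091 over arrays left out. The pairs *Vamp2* less *Vamp1* (0.21, mean of probes) and *Rims1* less *Rims2* (0.29, normexp) turned sign too. The causes were not tested, except that no filter adds dim probes. Sex could not be fitted at P30, where all arrays read as male.

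Deviations of samples with the same number correlated at 0.185, -0.532 and 0.708 at P30 and at 0.0900, 0.402 and 0.828 at P1, so the numbers were not taken as pairs. With the replicate number as a block, 43 of 49 values kept call and direction. The others were 1 member lower with age in *Mef2c*-het mice (*Doc2a* at -0.07, adjusted p = 0.725 from limma), 1 higher at P1, 4 lower for the difference (*Syn2* at -0.45 among them), and *Sv2a* at P30 at -0.19 (limma, unadjusted p = 0.105). Of the 3 WT arrays with a shared number, each correlated best with the *Mef2c*-het array of its own number at P1, and only replicate 7 did at P30, which is a hint from the data and not from the design.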
